A study of Mus musculus with 6 samples.

Results

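The Notch receptors, their Jagged ligands and the downstream targets of the pathway were examined in ovarian secondary follicles of young mice, aged 9 weeks, and old mice, aged 32 weeks. The members were the receptors Notch1, Notch2 and Notch3, the ligands Jag1 and Jag2, the target genes Hes1, Hey1, Hey2 and Heyl, and the glycosyltransferase Lfng. The array reads each transcript with one or more probe sets, which are sets of short oligonucleotides placed near the 3' end, and a probe set was taken when its only annotated symbol was one of these 10 genes, which gave 19 probe sets of 34945 with a single symbol and 10 genes of 18193. All mice were specific pathogen-free C57BL/6J females that carried no allele or treatment in the labels, and 3 samples of each age were hybridized, with age the only labelled difference. Follicles were dissected by hand with needles, so granulosa cells, the oocyte and any cells attached to the basal membrane were measured together. The labels call the samples biological replicates without saying how many mice each one pooled, so a p-value here reflects only how far these samples spread. In such bulk RNA, fewer cells of a type and less RNA per cell cannot be told apart.

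Notch signaling passes between touching cells. A Jagged or Delta ligand on one cell binds a Notch receptor on its neighbour, proteases then release the intracellular part of the receptor, and that part enters the nucleus and joins the DNA-binding protein Rbpj to switch on genes of the Hes and Hey families, which encode transcriptional repressors. In the mouse ovary the oocyte is known for expressing Jag1 and the granulosa cells for expressing Notch2, and the pathway takes part in the assembly of follicles and the growth of granulosa cells, while Notch1 and Notch3 are known from endothelial cells and from the smooth muscle cells and pericytes around vessels.

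The letters through which Rbpj acts are shown for the 2 promoters that held them among those searched, since Hes, Hey and fringe genes are the classical readouts of the pathway. RefSeq promoters of mouse build GRCm38.p6, from 250 bases before to 50 after the start of the gene, were found for 7 of the 10 members. None was available for Hes1, Hey1 and Heyl, so whether their promoters hold the letters was not examined. The letters GTGGGAA, the core of the Rbpj site, were searched on both strands and occurred in 2 of these 7, Hey2 and Lfng, against 6.38% of all 32851 promoters of the same length. In each sequence below, written from 250 bases before to 10 after the start on the strand of the gene, capitals mark the match. The Hey2 promoter lay at chr10:30842774-30843033 on the minus strand and the Lfng promoter at chr5:140607091-140607350 on the plus strand.
Hey2: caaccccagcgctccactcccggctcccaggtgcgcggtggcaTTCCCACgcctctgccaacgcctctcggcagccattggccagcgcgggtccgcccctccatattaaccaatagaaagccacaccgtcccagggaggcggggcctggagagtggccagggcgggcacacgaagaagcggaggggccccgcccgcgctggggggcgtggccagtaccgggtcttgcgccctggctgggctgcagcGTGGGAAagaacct
Lfng: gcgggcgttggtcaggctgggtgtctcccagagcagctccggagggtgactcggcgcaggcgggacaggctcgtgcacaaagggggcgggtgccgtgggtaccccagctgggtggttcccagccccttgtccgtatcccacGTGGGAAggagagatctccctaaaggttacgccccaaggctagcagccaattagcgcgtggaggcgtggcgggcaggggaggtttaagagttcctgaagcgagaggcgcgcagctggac
Hey2 held 2 matches, the first at positions -207 to -201 on the opposite strand (TTCCCAC) and the second at -4 to 3, where 1 is the first transcribed base and no base is numbered 0. Of all promoters, 0.256% held 2 or more. The match of Lfng lay at -109 to -103 and overlapped an E-box (CACGTG, at -112 to -107), the letters that Hey proteins and other basic helix-loop-helix factors bind, which 7.15% of all promoters contained. Such a match is a description of the letters and not evidence of binding, and neither gene passed the test described next.

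Values were log2 of the RMA intensities deposited by the authors, whose median was between 4.93 and 4.95 on the 6 arrays, with a lower quartile of 3.13 to 3.24 and an upper quartile of 7.10 to 7.20. No detection call was available, so a probe set near the lower quartile may carry little signal. Granulosa and oocyte markers were bright, since 13 of 13 granulosa and 14 of 15 oocyte markers lay above the upper quartile in the samples of both ages. The young and old arrays differed in their control transcripts. The gap from the 5' to the 3' probe set went from 0.47 ± 0.014 to 1.51 ± 0.0048 for Gapdh and from 1.48 ± 0.033 to 2.53 ± 0.050 for beta-actin (log2, young to old, SD, n = 3 each). Neither control overlapped between the ages (exact permutation test, two-sided, p = 0.1, the smallest p that 3 against 3 samples allow).

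The Notch pathway members changed little between the ages, and the clearest change was a lower level of Hes1 in the old mouse ovarian secondary follicles. None of the 10 members combined a fold of 2 with an adjusted p of at most 0.05 in limma's moderated test or in SAM, while 0.764% of all genes did so in limma. An unadjusted p under 0.05 was found for 7 of the 10 members and for 37.3% of all genes. With the adjusted p alone, which is what lower and higher stand for from here on, Hes1 and Jag2 were lower, Notch3 was higher and 7 members were not called. These shares of 2 and 1 of 10 compare with 13.3% of all genes lower and 10.1% higher, and are close to that background. The 3 old values lay wholly below the 3 young values in 6 members and wholly above in 2, where 23.7% and 18.9% of all genes did so. The median log2 fold change was -0.12 over the members and -0.0042 over all genes tested. Quantile normalization or cyclic loess gave 2 higher and 2 lower members in place of 1 and 2.

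**Figure D1:**
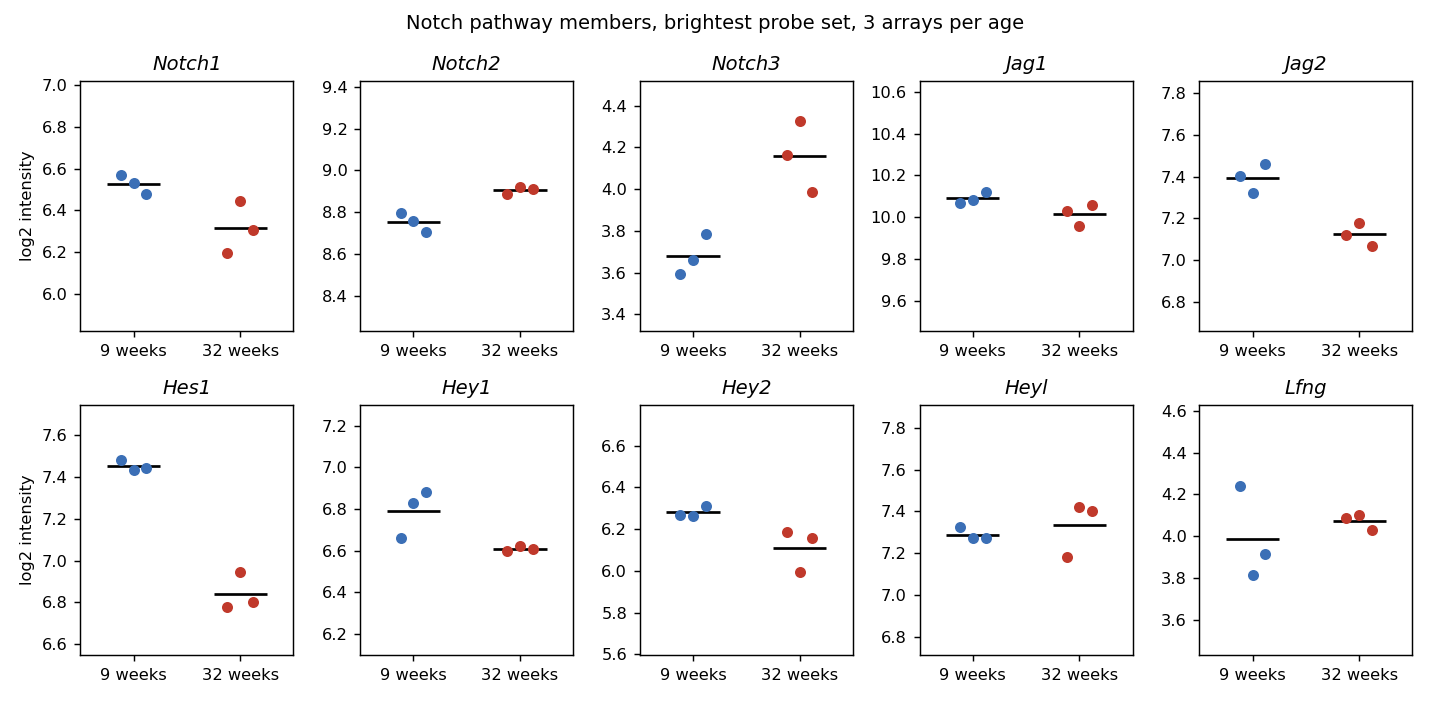
Log2 intensity (vertical axis, the same span of 1.2 units in each panel) of the brightest probe set of each member, one point per array, blue for 9 weeks and red for 32 weeks, with the mean of each age as a line. Hes1 shows the widest gap between the ages, from a mean of 7.45 to 6.84, while the groups overlap in Heyl and Lfng.

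Of the targets, Hes1 encodes a repressor that Notch induces in many tissues and that holds back differentiation. Its probe set was at 7.48, 7.43 and 7.44 in the young samples and at 6.78, 6.95 and 6.80 in the old samples (log2 intensity). All 3 old samples lay below all young samples, and the gap between the groups was wider than the range within either. The log2 fold change was -0.61 (standard error 0.06, 95% interval -0.76 to -0.47, adjusted p = 9.0e-04 from limma), so the young level was 1.53-fold the old level. Hes1 was the only member to pass a fold of 1.5. With each sample left out in turn, Hes1 stayed between -0.67 and -0.58 and was called each time. Hes1, like Hey1 and Hey2, had only 1 probe set, so no other could be set beside it. The part of the 3' shift of the controls in its value was not tested.

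Hey1 and Hey2 encode related repressors that act beside Hes1 and are best known from the heart and vessels. Hey1 was at 6.66, 6.83 and 6.88 in the young and at 6.60, 6.62 and 6.61 in the old samples. The old samples lay together just under the lowest young sample. Hey1 differed by -0.18 (95% interval -0.34 to -0.02, adjusted p = 0.097 from limma) and was not called, but without young replicate 1, that lowest sample, it was at -0.25 and called (adjusted p = 0.027). Hey2 was at 6.27, 6.27 and 6.31 in the young and at 6.19, 5.99 and 6.16 in the old samples, a difference of -0.17 (95% interval -0.32 to -0.02, adjusted p = 0.10) that was not called. Neither interval reached the estimate for Hes1, but the differences between the genes were not tested.

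Heyl, the third member of the Hey family, gave different answers by probe set. Its brightest probe set was at 7.33, 7.27 and 7.27 in the young and at 7.18, 7.42 and 7.40 in the old samples, with a difference of 0.05 (95% interval -0.13 to 0.22). The next probe set differed by 0.08 and overlapped too. The dimmest, 1419303_at, was at 4.92, 4.82 and 4.91 in the young and at 4.27, 4.42 and 4.55 in the old samples. This probe set was lower, at -0.47 (standard error 0.08, adjusted p = 0.0070 over all probe sets), with no overlap between the ages. No statement on the gene as a whole can rest on that 1 of 3 probe sets.

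Of the ligands, Jag2 was lower in the old follicles at both of its probe sets. Its brightest was at 7.40, 7.32 and 7.46 in the young and at 7.12, 7.18 and 7.07 in the old samples. The other was at 7.32, 7.20 and 7.25 in the young and at 6.95, 7.07 and 6.85 in the old samples. In both, each old sample was below each young sample. The log2 fold change was -0.27 (standard error 0.06, adjusted p = 0.018 from limma) at the brightest and -0.30 (standard error 0.07, adjusted p = 0.025 over all probe sets) at the other. These calls were near the threshold. Without young replicate 3, old replicate 1 or old replicate 3, the brightest was at -0.24, -0.27 and -0.24 and no longer called (adjusted p = 0.060, 0.051 and 0.065). The other probe set lost its call without young replicate 1, young replicate 3, old replicate 1 or old replicate 3 (adjusted p from 0.065 to 0.082).

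Jag1, the ligand known from the mouse oocyte, was at 10.07, 10.08 and 10.12 in the young and at 10.03, 9.96 and 10.06 in the old samples at its brightest probe set. The lowest young and the highest old sample were 10.07 and 10.06, so the groups touched without overlap. The difference was -0.07 (95% interval -0.20 to 0.05, adjusted p = 0.35) and was not called. A dimmer probe set of Jag1, 1421106_at, was at 6.27, 6.64 and 6.56 in the young and at 5.97, 6.30 and 5.89 in the old samples. It differed by -0.44, with overlapping groups, and just missed the threshold in limma (adjusted p = 0.0503), while SAM called it (q = 0.010). The third probe set of Jag1 differed by -0.15 and was not called. In the same samples 11 of 15 measured oocyte markers were lower and none was higher, where 13.3% and 10.1% of all genes were lower and higher. The summed intensity of the list went from 34908 to 36334 in the young samples to 30119 to 30642 in the old samples. Oocyte markers with the smallest p were the zona protein gene Zp3 (-0.54) and the receptor gene Kit (-0.49). The part of this shift in the values of the ligands was not tested.

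Of the receptors, Notch2 and Notch1 differed in sign but neither was called. Notch2, the receptor known from granulosa cells, was at 8.79, 8.76 and 8.71 in the young and at 8.89, 8.92 and 8.91 in the old samples. All old samples were above all young samples by a small step. The difference was 0.15 (95% interval 0.03 to 0.27, adjusted p = 0.070 from limma), and it passed the threshold at 0.22 after quantile normalization (adjusted p = 0.016) and at 0.21 after cyclic loess (adjusted p = 0.017). Its dim probe set differed by 0.23 and was not called. Notch1 was at 6.57, 6.53 and 6.48 in the young and at 6.20, 6.45 and 6.30 in the old samples, a difference of -0.21 (95% interval -0.38 to -0.04, adjusted p = 0.079). Without old replicate 2, its highest old sample, Notch1 was at -0.27 and called (adjusted p = 0.033). The dimmer probe set of Notch1 was at 0.08 with overlapping groups.

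Notch3, known from the smooth muscle cells and pericytes of vessels, was the only member called higher. Its brightest probe set, 1421965_s_at, was at 3.59, 3.66 and 3.79 in the young and at 4.16, 4.33 and 3.98 in the old samples. The old samples lay above the young ones, yet all 6 values were under the array median of 4.93. The log2 fold change was 0.48 (standard error 0.10, adjusted p = 0.012). The other probe set was at 3.39, 3.39 and 3.28 in the young and at 3.38, 3.13 and 3.43 in the old samples, a difference of -0.04 with overlapping groups. By that probe set alone, which is the one not marked as shared between transcripts, Notch3 was not called (adjusted p = 0.79). Markers of smooth muscle and pericytes moved in the same samples. Of 12 measured, 7 were higher and 1 was lower, with a median of 0.27, where 10.1% and 13.3% of all genes were higher and lower. Fewer were higher without shared probe sets. Their summed intensity went from 1247 to 1333 in the young to 1775 to 1805 in the old samples. Tagln (1.06) and Acta2 (0.70), which encode contractile proteins of smooth muscle, had the smallest p. Of other genes of the list, Myh11 (0.41) was higher, Myl9 (-0.23) was lower and Cnn1 (-0.04) was not called. The part of these markers in the value of Notch3 was not tested.

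Lfng, which adds sugar to Notch and so alters which ligand it answers to, was dim. It was at 4.24, 3.81 and 3.91 in the young and at 4.09, 4.10 and 4.03 in the old samples. The groups overlapped, and the difference was 0.08 (95% interval -0.17 to 0.33, adjusted p = 0.61). Its other probe set lay between 2.56 and 2.99 on all 6 arrays, below the lower quartile.

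**Figure D2:**
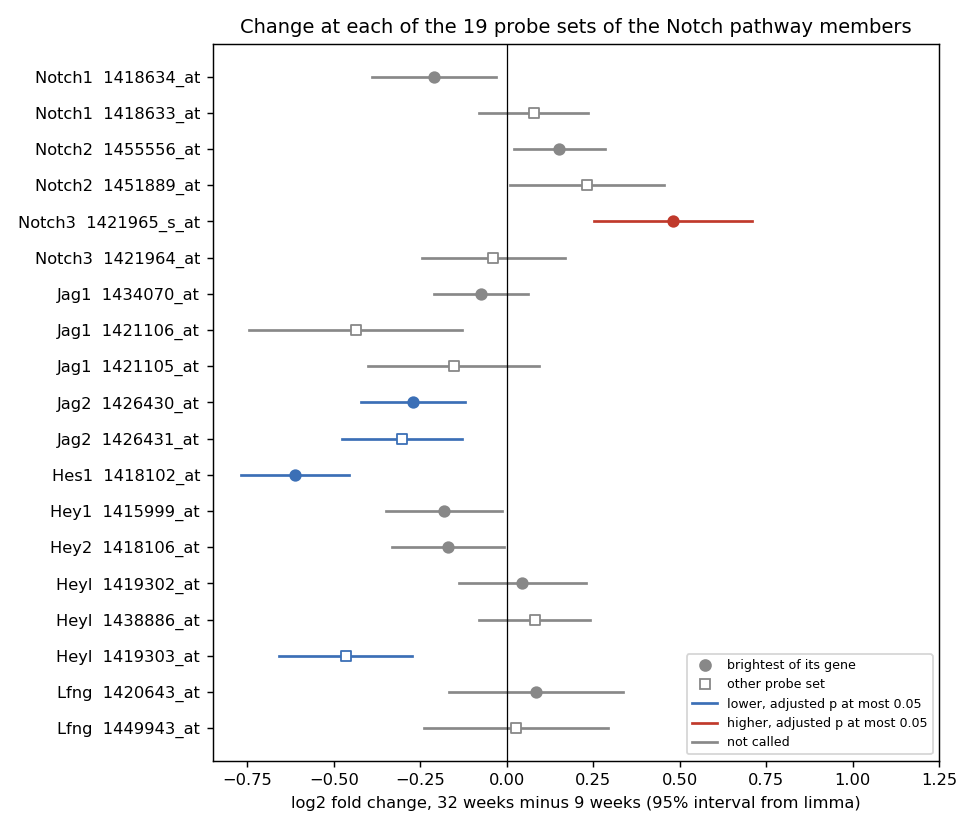
Log2 fold change, old minus young (horizontal axis), with the 95% interval from limma for each of the 19 probe sets; filled circles are the brightest of a gene and open squares the others, blue lower, red higher, grey not called. Both Jag2 probe sets are lower, while Notch3 and Heyl each have 1 probe set called and the rest near 0.

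Over all 19 probe sets, 4 were lower, 1 was higher and 14 were not called, where 13.8% and 8.95% of all probe sets were lower and higher. None combined a fold of 2 with an adjusted p of at most 0.05, as 1.02% of all probe sets did. To compare probe sets of a gene directly, each of the 9 dimmer ones was subtracted from the brightest on the same array. The old differences were, against the young ones, wholly higher in 2 of 9 pairs and wholly lower in none, against 23.0% and 19.3% of all 16752 such pairs on the array. The 2 were Notch3, from 0.33 ± 0.160 to 0.84 ± 0.325, and Heyl with 1419303_at, from 2.41 ± 0.045 to 2.92 ± 0.0775 (log2, SD, n = 3 each, exact permutation test, p = 0.1 each and adjusted p = 0.45 over the 9 pairs). For Jag1 with 1421106_at the difference went from 3.60 ± 0.18 to 3.96 ± 0.27, with overlap. The 3' over 5' gap of Gapdh was larger by 1.04, and that of beta-actin by 1.05, in the same old samples. Where the probe sets lie along the transcripts was not analysed here, and the part of the 3' shift in these pairs was not tested.

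**Figure D3:**
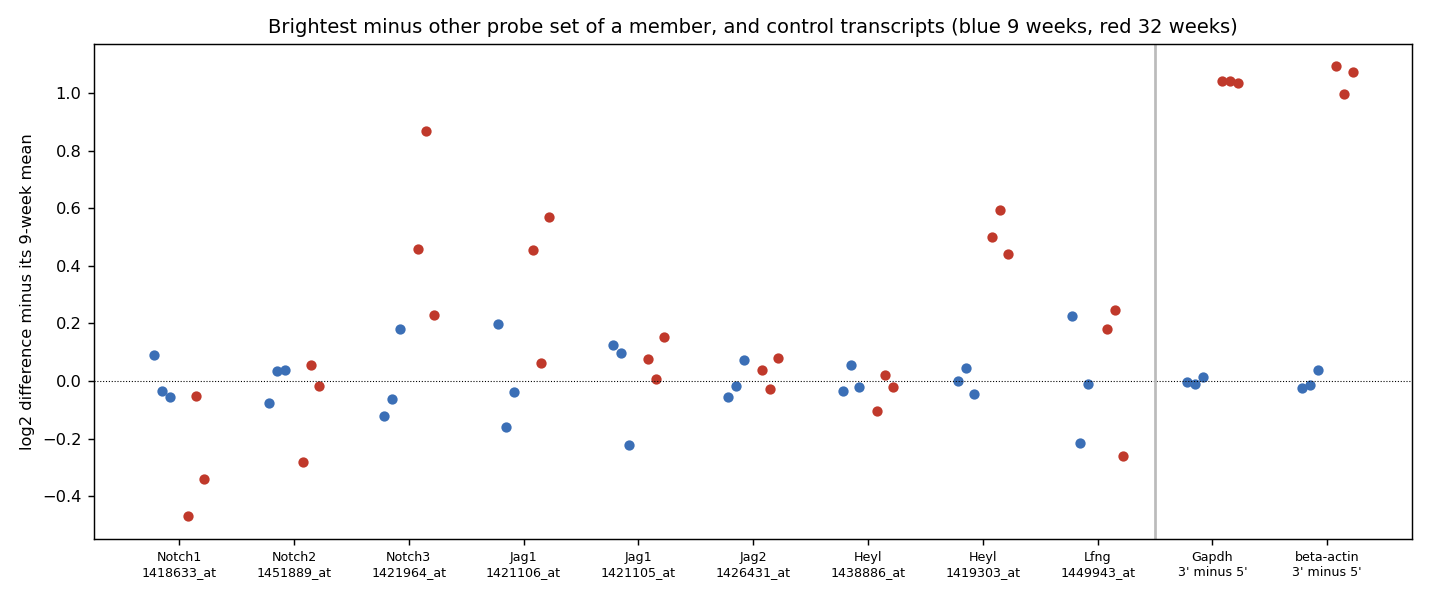
The brightest minus each dimmer probe set of a member, and the 3' minus 5' probe sets of Gapdh and beta-actin, on each array (vertical axis, log2 difference from its 9-week mean; blue 9 weeks, red 32 weeks). The controls sit about 1 unit higher in every old sample, Heyl with 1419303_at and Notch3 are wholly higher, and the other 7 pairs overlap.

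The rest of the pathway was described with 61 further genes in 6 groups by role, of which 56 were measured. None of the 56 combined a fold of 2 with an adjusted p of at most 0.05. At an adjusted p of at most 0.05, 8 were higher and 6 were lower, with a median of -0.01, and these shares of 14.3% and 10.7% compare with 10.1% and 13.3% of all genes. These counts rest on the brightest probe set of each gene. Over all 125 probe sets of the 56 genes, 15 were higher and 18 were lower. Lower probe sets also outnumbered higher ones over the whole array, at 13.8% and 8.95% of all probe sets. Of the 14 genes called at the brightest probe set, Lnx1, Dtx1, Aak1, Mfng and Crebbp were called under every alternative run, and the other 9 lost the call under at least 1. Lnx1 was read in 14 runs and not without shared probe sets, since its probe sets were all of that kind. Of 15 runs, Psen2 lost its call in 12, Ep300 in 8, Dll3 in 7, and Ncstn and Neurl1b in 5 each. Without young replicate 2 the count of higher genes was 5, and the count of lower genes was 3 without young replicate 1, young replicate 2, old replicate 1 or old replicate 2. Counts over all genes fell as well with 1 sample left out. They went from 1835 to between 1137 and 1471 higher and from 2422 to between 1478 and 2153 lower.

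Of 9 other receptors and ligands, 3 were higher and none was lower, where 10.1% and 13.3% of all genes were higher and lower. Dner, a transmembrane protein that can bind Notch, had a log2 fold change of 0.44 (adjusted p = 0.014 from limma). Dner was dim, from 3.31 in the young to 3.75 in the old samples, and its other probe set was at -0.02. The endothelial secreted factor Egfl7 had 0.26. Dll3, a Delta protein that does not activate Notch on neighbouring cells, had 0.21 and was not called by SAM. Dner and Egfl7 were no longer called when their probe sets were averaged. Ccn3 was at 0.28 and not called. Over their 19 probe sets, 4 were higher and none was lower, the further one being a dimmer probe set of the receptor gene Notch4 at 0.46. That probe set went from 2.90 to 3.37, near the lower quartile of the arrays. The other Notch4 probe sets were at -0.04 and 0.02 and not called. Of 5 glycosyltransferases, Mfng, a fringe enzyme like Lfng, was lower (-0.29, standard error 0.06, adjusted p = 0.012) and 4 were not called, Eogt at 0.14, Poglut1 at -0.08 and Rfng at 0.05 among them.

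The gamma-secretase complex, which cuts the receptor free from the membrane, had members on both sides. Of 10 genes for cleavage, Psenen was higher at 0.24 (adjusted p = 0.014), and Ncstn (-0.30, adjusted p = 0.025) and Psen2 (-0.19, adjusted p = 0.032) were lower. Psen2 lost its call in 12 of 15 alternative runs, among them the one without its shared probe set, where it was at 0.02. Aph1a was at -0.21 and not called at its brightest probe set, while its other probe sets were called in the opposite direction, at 0.39 (adjusted p = 0.0055) and 0.27 (adjusted p = 0.031). Over the 21 probe sets for cleavage 3 were higher and 6 were lower, and the lower ones included dimmer probe sets of the protease gene Adam17 and of Aph1b, each at -0.62, and a pair for Adam10. In the nuclear complex, Rbpj itself went from 9.30 to 9.31, a difference of 0.01 (95% interval -0.10 to 0.13), and its dimmer probe sets were at -0.27 and -0.12, neither of them called. Of 11 nuclear genes, 3 were lower and none was higher, where 13.3% and 10.1% of all genes were lower and higher. These were the histone demethylase gene Kdm5a (-0.34) and the acetyltransferase genes Ep300 (-0.30) and Crebbp (-0.27, standard error 0.05, adjusted p = 0.0096), all of which serve many other pathways. Snw1, a cofactor of transcription and splicing, was at 0.11 and not called at its brightest probe set, while its other probe sets were both lower, at -0.55 (adjusted p = 0.0040) and -0.32 (adjusted p = 0.014). Over the 27 probe sets of this group 7 were lower and none was higher, where 13.8% and 8.95% of all probe sets were lower and higher.

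Of 7 other targets, 1 was higher, Dtx1, which encodes a ubiquitin ligase that binds the Notch intracellular domain. Its level went from 5.94 to 6.36, which is 0.41 on the log2 scale (standard error 0.07, adjusted p = 0.0053), and its other probe set was at 0.37. Hes1 and Dtx1, both known targets of the pathway, thus moved in opposite directions. Nrarp, a feedback inhibitor that Notch induces, was at 0.06, Hes2 at -0.16 and Hes7 at -0.15, none of them called. Hes6, a relative of Hes1, was at -0.02 at its brightest probe set and was not called, but its dimmer probe set was lower at -0.86 (standard error 0.09, adjusted p = 7.4e-04), the largest change of the 11 probe sets of these targets. Of 14 genes for turnover and endocytosis, 3 were higher and none was lower at the brightest probe set, against 10.1% and 13.3% of all genes. Over their 37 probe sets 6 were higher and 3 were lower, against 8.95% and 13.8% of all probe sets. Lnx1, a ubiquitin ligase for the Notch inhibitor Numb, had the largest difference of all 56 genes at 0.61 (standard error 0.05, adjusted p = 4.8e-04), from 9.13 to 9.74. Aak1, a kinase of clathrin-coated pits, was at 0.35 (standard error 0.06, adjusted p = 0.0053), and Neurl1b, a ubiquitin ligase for Notch ligands, was at 0.32 (adjusted p = 0.022). Neurl1a was at 0.24 and not called at its brightest probe set, and higher at 0.31 and 0.37 at dimmer ones. The lower probe sets were dimmer ones of the ubiquitin ligase genes Itch (-0.47), Nedd4 (-0.36) and Dtx2 (-0.28).

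**Figure D4:**
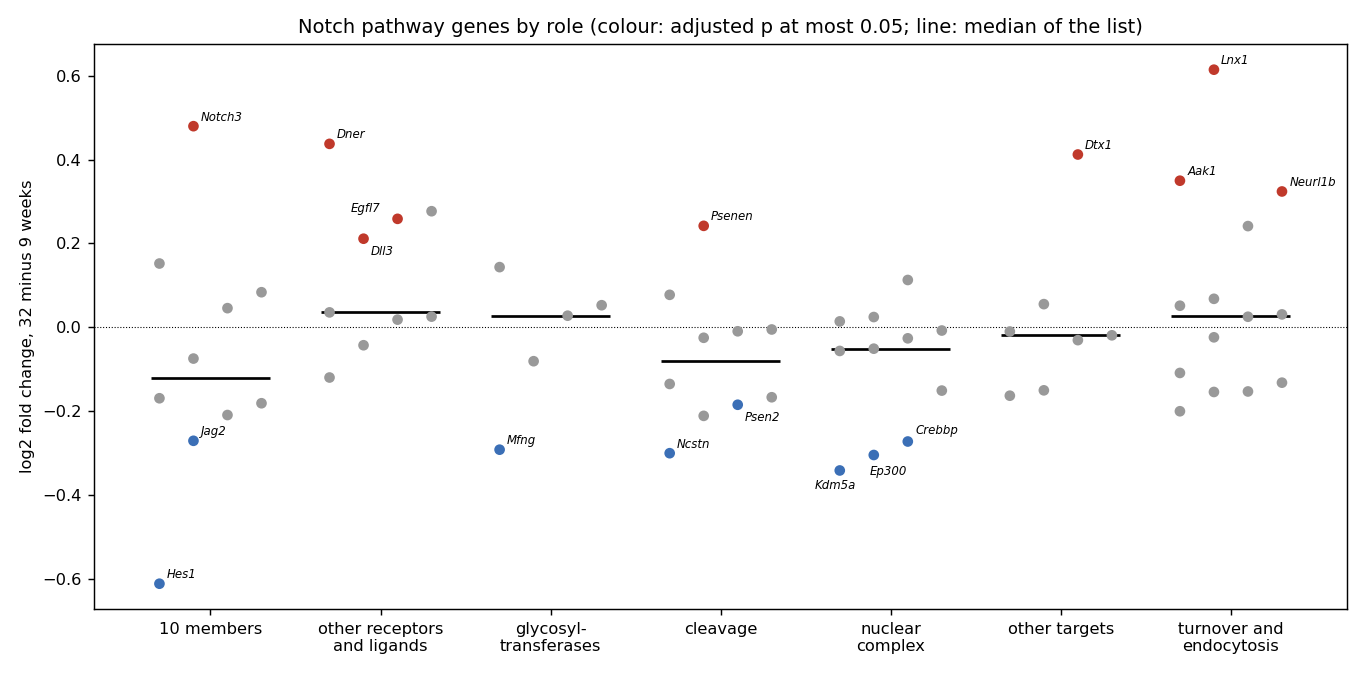
Log2 fold change, old minus young (vertical axis), for the 10 members and 56 other genes of the pathway by role, with 1 point per gene at its brightest probe set, a line at the median of each list, and colour for an adjusted p of at most 0.05. Hes1 at -0.61 and Lnx1 at 0.61 lie farthest from 0, and the medians of all lists lie between -0.12 and 0.04.

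Markers of other cell types that a dissected follicle could carry were read in the same samples. For the counts below, 10.1% of all genes were higher and 13.3% were lower. Of 18 endothelial markers, 8 were higher and 2 were lower, with a median of 0.21, and their summed intensity went from 1223 to 1248 in the young to 1264 to 1347 in the old samples. Esam (0.57) and Cldn5 (0.53), both of endothelial junctions, had the smallest p. The defining markers Pecam1 and Cdh5, named after their values were seen, went from 3.49 to 3.27 and from 5.10 to 5.25, and neither was called. Of 13 theca and stroma markers, 6 were higher, with the steroid enzyme gene Cyp11a1 (1.34) and Mfap5 (1.08) past a fold of 2. The 2 lower ones were Col1a2 (-0.43) and Tcf21 (-0.38). Cyp17a1 (-0.11), Gli1 (-0.10) and Ptch1 (-0.02) of the same list were not called. Of 9 surface epithelium markers, 8 were higher and 1 was lower, with Krt7 (1.63), Krt19 (1.55), Upk3b (1.17) and Upk1b (1.04) past a fold of 2, and a summed intensity that went from 1440 to 1565 in the young to 1667 to 1677 in the old samples. Of 14 immune markers, 7 were higher and 1 was lower, and Tyrobp (0.93) and C1qa (0.78) had the smallest p. Of 5 luteal and erythroid markers, 1 was higher, Alas2 (0.77), and Ptgfr at -0.38 was not called. Of 13 granulosa markers, 10 were not called, 1 was higher, and 2 were lower, Gatm (-0.75) and Slc18a2 (-0.50). The median of the granulosa list was 0.03. Its summed intensity overlapped between the ages, at 40214 to 41010 in the young and 39797 to 41157 in the old samples. The part of these shifts in the Notch values was not tested.

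**Figure D5:**
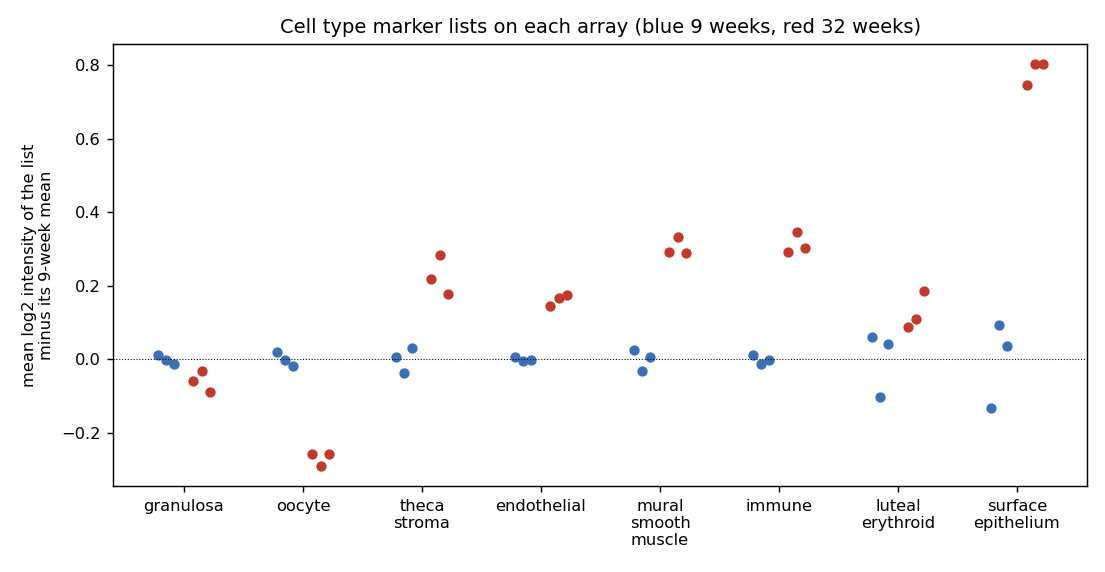
Mean log2 intensity of each marker list on each array, minus its mean in the young samples (vertical axis; blue 9 weeks, red 32 weeks). The oocyte list and, by a smaller step, the granulosa list lie lower in every old sample than in any young one, and the other 6 lists lie higher. The median change over the 13 granulosa genes was 0.03, and 10 of them were not called.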

How the data were processed

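Affymetrix mouse arrays of secondary follicle RNA, 3 from young and 3 from old mice, were used. The authors ran RMA (no version found in the labels or paper) and deposited intensity values on a linear scale, from 2.62 to 13880. Log2 of these was used with no pseudocount. Probe sets were named from the platform annotation, and symbols were updated through gene IDs with RefSeq names (18032 of 18194 IDs matched). Probe sets with several symbols (932) and those with no symbol or a control name (9224, all 64 controls included) were left out of the tests. A gene was read by the brightest of its probe sets, averaged over the 6 arrays. No arrays held the same values.

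The ages were compared by limma 3.58.1 under R 4.3.3, with moderated two-sided tests adjusted by Benjamini-Hochberg across 18193 genes and, in a second fit, 34945 probe sets. Exact permutation tests served for single values. The steps were tested on simulated data. The alternatives were SAM, written anew from its description with all 20 label assignments, other priors, array weights, other probe set rules, a minimum mean log2 value of 5, other normalizations, a fold of 1.5, a replicate block, and each sample left out in turn. The number of arrays limits the precision. The members and lists were chosen with earlier results of these data known. Named are all 10 members, and from each other Notch list the genes past a fold of 2 and up to 4 with the smallest p, from each marker list up to 2; called genes and textbook members outside this rule were named after their values were seen.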

Additional observations from a re-analysis of the deposited data

How the results depend on the processing

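No Notch member reached a fold of 2 under any alternative, and a fold of 1.5 gave 1 member and 1 probe set, both Hes1. Hes1 was called lower under every alternative run. The count of higher members, 1 in the main analysis, was 2 with eBayes trend and robust priors, array weights, quantile normalization or cyclic loess, and 0 without shared probe sets, where Notch3 was at -0.039. With a mean log2 value of at least 5 it was again 1, but Notch2 in place of Notch3, which that minimum removed. The count of lower members, 2 in the main analysis, was 4 with array weights. It was 5 of the 8 members kept with the minimum mean value, where fewer genes were tested. Over all genes, 2422 of 18193 were lower in the main analysis, 3046 of 18193 with array weights and 3077 of 11380 with that minimum. Leaving out each sample gave 1 to 3 lower members and 1 higher. Of the probe sets, 2 were higher with trend and robust priors, quantile normalization or cyclic loess, 0 were higher without the shared ones, and 7 were lower with array weights. Leaving out each sample gave 2 to 6 lower probe sets. The median of the members, -0.12 in the main analysis, was -0.18 with the minimum mean value, -0.074 after cyclic loess, -0.075 after quantile normalization and -0.078 without old replicate 2, and -0.14 to -0.078 with each sample left out. The median over all genes moved too, from -0.0042 in the main analysis to -0.047 over the 11380 genes kept with that minimum. It was 0.0054 after cyclic loess and 0.0029 after quantile normalization. Outside the members, Psen2 was at 0.020 and not called, and Aph1a at 0.39 and called, without shared probe sets. Snw1 was at -0.25 and called with probe sets averaged. The cause was not tested for these changes.

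Samples share a replicate number across the ages, but deviations of same-numbered samples correlated at 0.053, -3e-04 and 0.043, so the numbers were not taken as pairs. With the replicate number as a block, 1 member was lower in place of 2, since Jag2 was at an adjusted p of 0.051 from limma, and 1496 genes were higher and 1910 lower, against 1835 and 2422. Leaving out 1 sample lowered the counts over all genes too, to between 1137 and 1471 higher and between 1478 and 2153 lower. Among the marker counts, 4 endothelial genes were higher without young replicate 2 and 5 without young replicate 3 or old replicate 3. Oocyte genes lower were 7 without young replicate 2 or old replicate 1 and 6 without old replicate 3. Immune genes higher were 4 without young replicate 2 or 3. Smooth muscle genes higher were 3 without shared probe sets. Notch3 and Lfng were read below the median of the arrays, and no detection call was available for them.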

Other observations

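Of the 125 probe sets of the 56 other Notch genes, 1 was called at a fold of 2, and it was chosen after its values were seen. Of all probe sets, 1.02% were called at that fold, so a count of 1 is close to that background. Adam10, the protease that makes the first cut in the receptor after a ligand binds, had this probe set at 6.01, 5.95 and 5.97 in the young and at 4.62, 4.79 and 4.61 in the old samples. Its log2 fold change was -1.30 (standard error 0.07, adjusted p = 3.4e-05 from limma over all probe sets). The brightest probe set of Adam10 was at 9.86 and 9.84 in young and old samples, a difference of -0.03 that was not called. The other probe sets were at -0.54, which was called, and at 0.14, which was not. The 3' over 5' gap of Gapdh differed by 1.04 between the same samples, and its part in the Adam10 probe sets was not tested.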
